A study of Pangasianodon hypophthalmus with 14 samples.

Results

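The genes described here are 100 of the 21656 genes of the table, picked because their transcripts were scarcer in tra catfish larvae at 9 days post fertilization (dpf) than on the day before and the day after. For each gene, counts were divided by the library's total and expressed per 1000000 counts (CPM). The lowest of the 4 libraries of 8 and 10 dpf was then divided by the higher of the 2 libraries of 9 dpf, after adding 1 CPM to each, and the log2 of that ratio was the score. The 100 highest scores were kept after 484 genes had been left out by the start of their symbols (rpl, rps, mrp, nduf, col, slc and kcn). The dip at 9 dpf is therefore how the genes were chosen and not a result: the members were chosen by the CPM of the 6 libraries of 8, 9 and 10 dpf, and every value that compares 9 dpf with 8 or 10 dpf is a description. What the choice did not use are the libraries of 2, 4, 6 and 11 dpf.

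The largest group by annotated role among the 100 genes was placed under digestive enzymes. The exocrine pancreas of a fish larva fills granules with amylase, lipases and the precursors of trypsin, elastase and carboxypeptidase. It releases them into the gut, where the precursors are activated. Such proteins enter the endoplasmic reticulum while they are made, and there a signal peptidase removes the signal peptide and the oligosaccharyltransferase adds sugar chains. Ribosomal proteins form the ribosomes on which all of this depends. A further small group is known from the inner ear, where the otoliths grow on a matrix of secreted proteins.

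RNA was sequenced from whole tra catfish (*Pangasianodon hypophthalmus*), an air-breathing species, at 7 stages (2, 4, 6 and 8 dpf, then daily until 11 dpf), with 2 libraries per stage and each replicate pooled from 4 embryos or larvae. The labels give no treatment or genotype, and the groups are told apart by age alone. In whole bodies, fewer cells of a type and less RNA per cell cannot be told apart. The libraries held 4112131 to 11609823 counts, so that 3 counts were worth 0.258 to 0.730 CPM. The 2 libraries of 6, 9 and 11 dpf differed little more than counting alone gives (chi-square per gene 1.13, 1.15 and 1.29), while those of 8 and 10 dpf gave 3.69 and 3.84, and those of 2 and 4 dpf 18.7 and 29.6. p-values rest on a spread estimated over all 14 libraries, which may be technical. The close pairs of 6, 9 and 11 dpf enter this estimate. The p-values for 2 and 4 dpf may therefore be smaller than their own libraries would give. Those for 11 against 6 dpf compare only close pairs, so they may not measure the spread between pools. The study states that both pools of a stage gave equal amounts of RNA for its libraries, and whether the pools stayed apart is not clear. A fit of only the 4 libraries compared called 57 of the genes instead of 62 at 4 against 2 dpf, and 43 instead of 49 at 6 against 4 dpf. Over all genes it called 3191 of 18368 instead of 3816 of 19310, and 1471 of 18690 instead of 2181 of 19310. At 9 dpf the 10 most abundant genes took 24.9 and 25.03% of all counts, against 22.7 to 23.2% at 8 and 10 dpf, and the part of this shift in the dip was not tested.

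The score was 6.59 for the first gene, 1.41 for the second, 0.63 at the median and 0.48 for the last, and 11 genes scored above 1. The last genes taken were otogl (0.4829) and cunh4orf33 (0.4818), and the first left out were sst2 and ctsla, both at 0.48, so the end of the list is a cut through a continuous range. Together the 100 genes made up 0.838 and 0.827% of all counts at 9 dpf. They made up 1.77 and 1.80% at 8 dpf, 1.88 and 1.62% at 10 dpf and 1.66% in both libraries of 11 dpf, and reached 3.01 and 2.98% at 6 dpf. By annotated role, 17 genes encode digestive enzymes or proteins of their granules, 4 encode lysosomal proteases or peptidase inhibitors, 6 belong to the secretory pathway, 6 are ribosomal proteins, 4 are inner ear proteins, 33 carry other names and 30 have no gene name in the annotation used here. The study itself names 1 of these 30, LOC113536891, as a subunit of cytochrome c oxidase. Of the 17, sycn, cel, amy2a, prss1, ela2l and ela3l carry the name of a digestive protein. The others, known only by an identifier, were placed by a peptidase activity in the functional annotation used in the study. Such an activity alone does not show a digestive role or an organ.

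**Figure D1:**
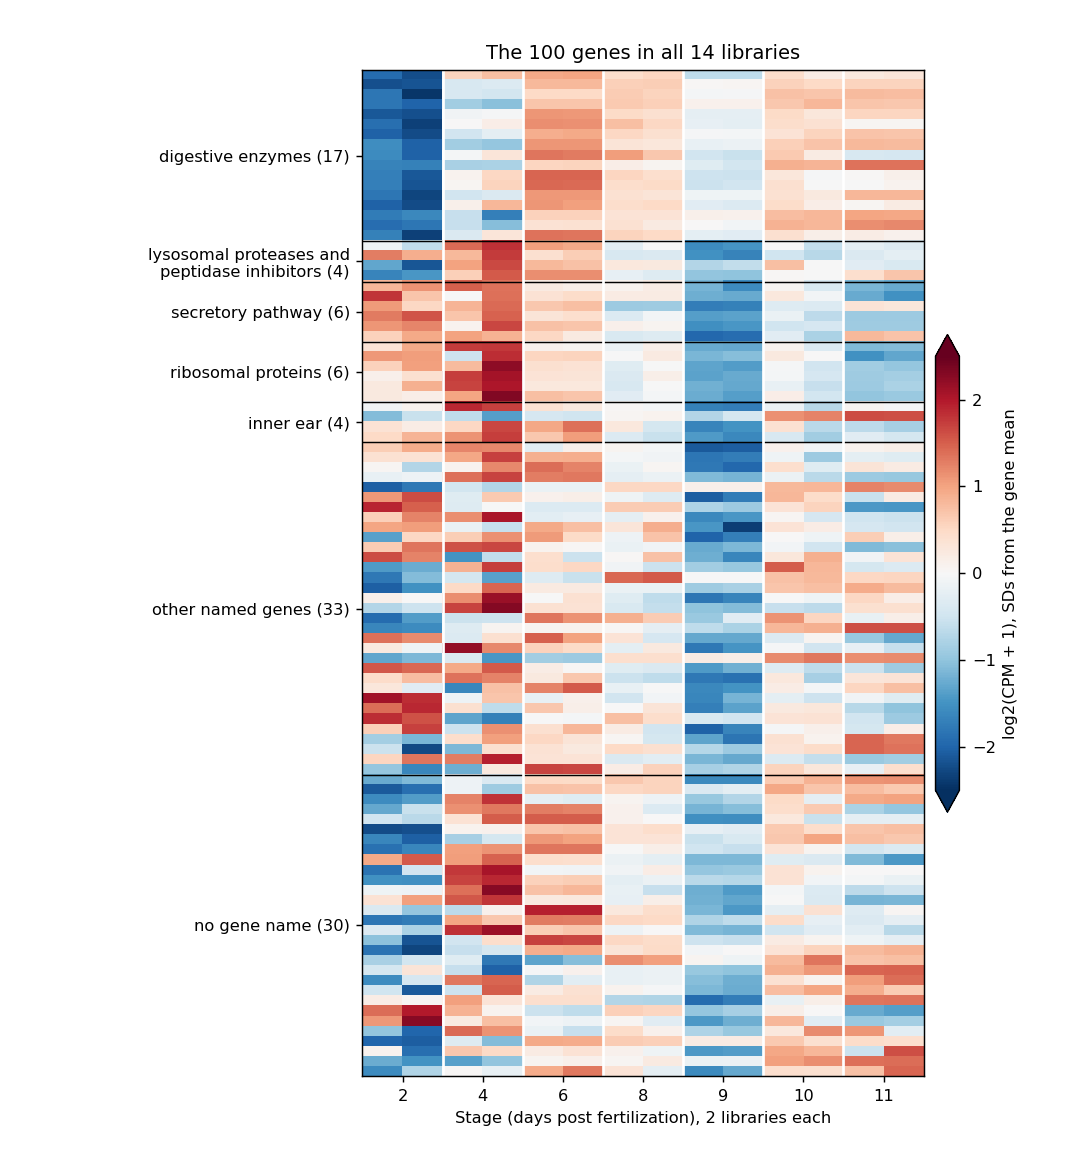
Each line of the heat map is 1 of the 100 genes and each column 1 of the 14 libraries, ordered by stage in days post fertilization. Colour gives log2(CPM + 1) in SDs from the mean of that gene, and black lines part the role groups, with their gene numbers in parentheses. The digestive enzymes are lowest at 2 dpf and most ribosomal proteins highest at 4 dpf, while both are pale or blue at 9 dpf, where the rule required low values.

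One gene stood apart from the other 99. LOC113524200, which has no gene name in the annotation, was at 1.04 and 1.82 CPM at 2 dpf, 21.4 and 12.6 CPM at 4 dpf, 85.3 and 80.6 CPM at 6 dpf, 123.7 and 95.4 CPM at 8 dpf, 0 and 0 CPM at 9 dpf, 118 and 189 CPM at 10 dpf, and 327 and 333 CPM at 11 dpf. It was not counted once in either library of 9 dpf (0 of 7764533 and 0 of 7197268 counts), although it gained 887 and 1108 counts at 8 dpf and 731 and 1247 at 10 dpf. Against a floor of 3 counts per library, its level was at least 263-fold higher at 8 dpf and at least 368-fold higher at 10 dpf than at 9 dpf. Outside the 3 stages of the rule it climbed at every step tested. Its log2 fold change was 3.74 ± 0.40 (SE) from 2 to 4 dpf, 2.26 ± 0.25 from 4 to 6 dpf and 2.09 ± 0.23 from 6 to 11 dpf, with adjusted p-values of 2.16e-06, 1.10e-05 and 9.19e-06 (edgeR quasi-likelihood test, Benjamini-Hochberg).

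Among the digestive enzymes, the summed level of the 17 genes was 487 and 307 CPM at 2 dpf, 3044 and 4209 CPM at 4 dpf, 14476 and 14290.0 CPM at 6 dpf, 8103 and 7616 CPM at 8 dpf, 3373 and 3330.0 CPM at 9 dpf, 7927 and 7039.6 CPM at 10 dpf, and 7940.5 and 7924 CPM at 11 dpf (replicates 1 and 2). The sum was highest at 6 dpf in both libraries, was lower at 9 dpf than at any other stage from 6 dpf on, and stood in both libraries of 11 dpf within the range of 8 and 10 dpf. It includes the genes placed by a peptidase activity alone, so it does not give the course of the named enzymes. By stage means, 12 of the 17 genes were highest at 6 dpf, 1 at 10 dpf and 4 at 11 dpf, with prss1 and ela2l among the last.

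The enzyme group's highest score was that of sycn, which encodes syncollin, a protein of zymogen granules. It was at 29.4 and 22.1 CPM at 2 dpf, 333 and 405 CPM at 4 dpf, 486 and 501 CPM at 6 dpf, 296 and 328 CPM at 8 dpf, 105 and 104 CPM at 9 dpf, 299.8 and 233 CPM at 10 dpf, and 245 and 262 CPM at 11 dpf. Levels at 9 dpf were thus below all libraries of 4 to 11 dpf and above those of 2 dpf. LOC113532348, annotated as a serine endopeptidase, was among the 10 most abundant of the 100 genes, with 14.2 and 14.9 CPM at 2 dpf, 325 and 366 CPM at 4 dpf, 2654 and 2607 CPM at 6 dpf, 1804 and 1894 CPM at 8 dpf, 695 and 708 CPM at 9 dpf, 1768 and 1550.1 CPM at 10 dpf, and 1679 and 1703 CPM at 11 dpf. No library of 9 dpf overlapped with one of another stage. The elastase gene ela3l was at 13.1 and 9.70 CPM at 2 dpf, 54.2 and 42.3 CPM at 4 dpf, 546 and 541 CPM at 6 dpf, 524 and 471 CPM at 8 dpf, 233 and 234 CPM at 9 dpf, 536 and 673 CPM at 10 dpf, and 549.9 and 532 CPM at 11 dpf. At 6, 8, 10 and 11 dpf it lay between 471 and 673 CPM, and both libraries of 9 dpf lay below that range.

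The other named enzymes returned to different heights. The carboxyl ester lipase gene cel, whose product splits esters of fats and sterols, was at 422 and 451 CPM at 6 dpf, 225 and 183 CPM at 8 dpf, 91.4 and 88.6 CPM at 9 dpf, 168 and 241 CPM at 10 dpf, and 307 and 298 CPM at 11 dpf. The amylase gene amy2a was at 564 and 565 CPM at 6 dpf, 210.1 and 191 CPM at 8 dpf, 105 and 105 CPM at 9 dpf, 208 and 171 CPM at 10 dpf, and 395 and 402 CPM at 11 dpf. Both were higher at 11 dpf than in any library of 8 or 10 dpf and lower than at 6 dpf. The trypsin gene prss1 was at 123.03 and 126 CPM at 6 dpf, 70.6 and 61.5 CPM at 8 dpf, 35.03 and 27.9 CPM at 9 dpf, 205 and 193 CPM at 10 dpf, and 408 and 413 CPM at 11 dpf, and the elastase gene ela2l at 297 and 299 CPM at 6 dpf, 187 and 188 CPM at 8 dpf, 123.9 and 118 CPM at 9 dpf, 433 and 473 CPM at 10 dpf, and 655 and 634 CPM at 11 dpf. For these 2 genes the libraries of 10 dpf already lay above those of 6 dpf, and those of 11 dpf lay above all others.

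**Figure D2:**
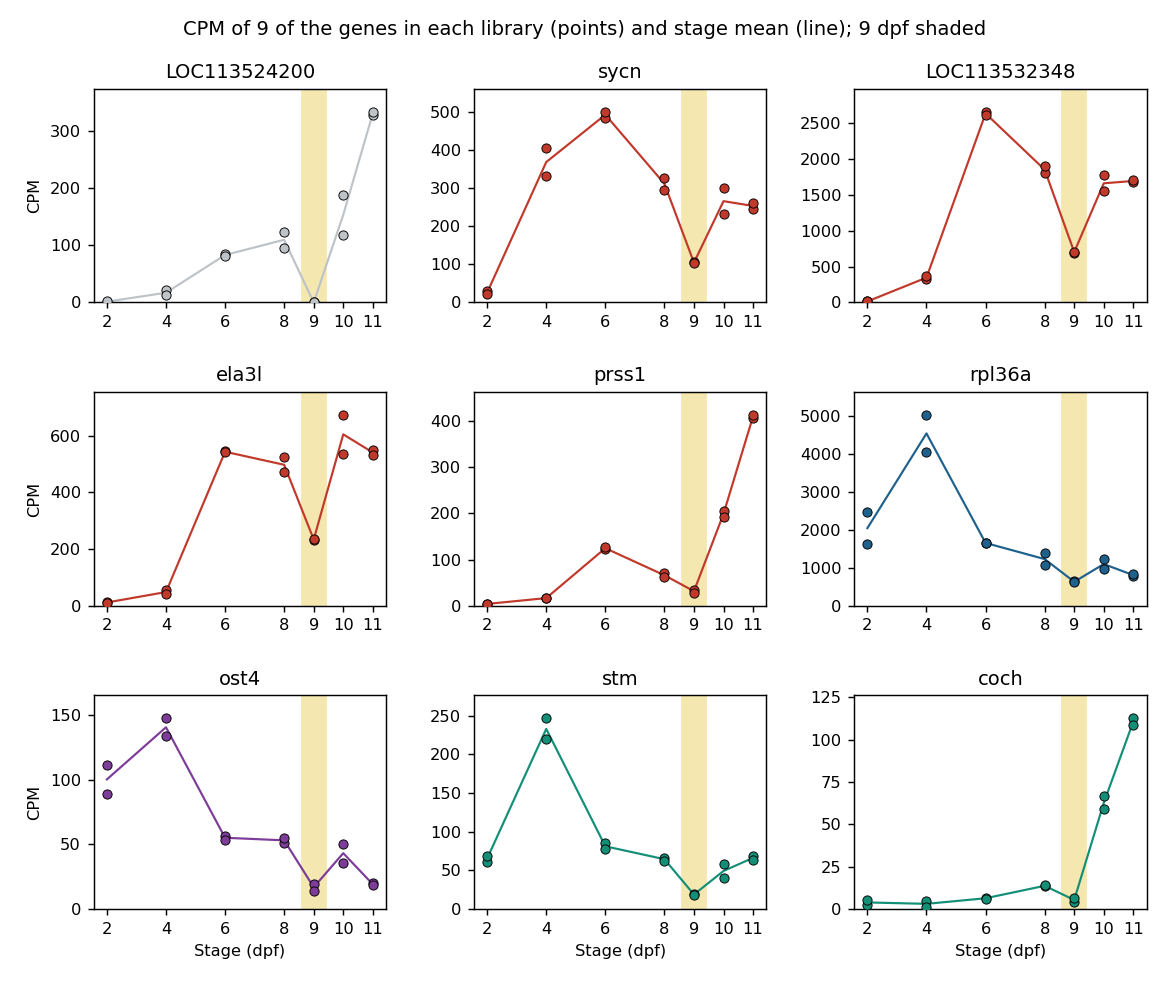
Points are the CPM of single libraries and lines the stage means, by age in days post fertilization, for 9 of the 100 genes, each on its own linear axis from 0. The yellow band marks 9 dpf. LOC113524200 drops to 0, ela3l returns to the level it had at 6 dpf, prss1 and coch climb past it at 10 and 11 dpf, and rpl36a and ost4 at 11 dpf lie little above 9 dpf.

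The unnamed proteases differed among themselves at 11 dpf. LOC113534544 and LOC113534536, both annotated as metalloendopeptidases, were at 294 and 282 CPM and 85.6 and 80.7 CPM at 9 dpf and at 386 and 387 CPM and 92.1 and 90.2 CPM at 11 dpf. Both libraries of 11 dpf were above 9 dpf but below every library of 8 and 10 dpf. Their neighbour LOC113534302, with the same annotation, was at 131 and 135 CPM at 9 dpf and 387 and 382 CPM at 11 dpf, above all libraries of 8 and 10 dpf. LOC113546609, a metallopeptidase, was at 329.7 and 329 CPM at 9 dpf and 891 and 885 CPM at 11 dpf, and LOC113539243, a serine endopeptidase and the second most abundant of the 100 genes, at 867 and 842 CPM and 1262 and 1196 CPM. Across the 17 genes, the ratio of stage means was 1.55 to 3.27 for 8 over 9 dpf (median 2.27), 1.62 to 6.32 for 10 over 9 dpf (median 2.28) and 1.096 to 13.04 for 11 over 9 dpf (median 2.42).

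In the libraries that the choice did not use, the digestive enzymes rose early. All 17 were called higher at 4 than at 2 dpf, against 13.8% of all genes tested. Their median log2 fold change was 3.74, with a range from 2.15 to 4.89. They ranged from cel, which rose by 4.89 ± 0.30 (SE, adjusted p = 2.92e-09, edgeR quasi-likelihood test, Benjamini-Hochberg), down to LOC113526417, a serine endopeptidase, at 2.15 ± 0.27 (adjusted p = 8.65e-06). LOC113532348 rose by 4.83 ± 0.22 (adjusted p = 6.99e-11) and sycn by 4.10 ± 0.20 (adjusted p = 1.46e-10). Without the first library of 4 dpf, or of 2 dpf, 16 of the 17 were called. The call lost was that of ela2l, which had 31.6 CPM in the first library of 4 dpf and 2.64 CPM in the other. From 4 to 6 dpf 15 of the 17 rose again (4.81% of all genes) and none fell (6.48%), with a median of 2.11. The largest rises at this step were those of ela2l (4.19 ± 0.53, adjusted p = 2.30e-05), LOC113526417 (3.91 ± 0.19, adjusted p = 2.55e-09) and ela3l (3.43 ± 0.19, adjusted p = 9.01e-09). The 2 genes not called, with log2 fold changes under 1, were sycn (0.34 ± 0.17, adjusted p = 0.14) and LOC113530350 (0.64 ± 0.22, adjusted p = 0.036).

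Between 6 and 11 dpf the genes placed under digestive enzymes parted. None of those that carry the name of a digestive protein was called lower, and those that fell were placed by a peptidase activity alone. Of the 17, 3 were higher at 11 dpf (4.24% of all genes), 6 were lower (5.04%) and 8 were not called, with a median of -0.54. The 3 that rose were LOC113546600, a metallopeptidase (1.99 ± 0.19, adjusted p = 1.91e-06 by edgeR quasi-likelihood test, Benjamini-Hochberg), prss1 (1.82 ± 0.14, adjusted p = 1.53e-07) and ela2l (1.21 ± 0.44, adjusted p = 0.044). The 6 that fell were all unnamed proteases, led by LOC113533918 (-2.12 ± 0.26, adjusted p = 2.55e-05) and LOC113533920 (-2.09 ± 0.23, adjusted p = 7.08e-06), which lie next to each other. With the close pairs of 6, 9 and 11 dpf each summed to 1 library, fewer of the 17 were called, as over all genes. The call of ela2l was lost there, and held in only 2 of 14 fits that left out 1 library.

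A list of exocrine pancreas enzymes added genes that the choice had left out. It holds 10 genes, of which cel, amy2a, prss1, ela2l and ela3l are among the 100. The other 5 were the colipase gene clps, the phospholipase gene pla2g1b, the elastase gene cela1.6 and the carboxypeptidase genes cpa4 and cpb1. At 8, 9 and 10 dpf, cela1.6 was at 706 and 703, 508 and 491 and 858 and 787 CPM, and its score of 0.47 lay just outside the 100. The gene clps was at 115 and 102, 49.5 and 50.4 and 79.9 and 53.1 CPM, and cpa4 at 157 and 170.5, 105 and 106 and 141 and 99.5 CPM. The low point at 9 dpf was thus clear for cela1.6, while 1 of the 2 libraries of 10 dpf was close to 9 dpf for clps and below it for cpa4. The 5 genes among the 100 are low at 9 dpf by choice. The other 5 alone had a median log2 fold change of -0.74 for 9 against 8 dpf (-0.05 over all genes tested) and 0.78 for 10 against 9 dpf (0.02 over all genes), with all 5 on the same side at each step, and these values are given without a test. With the 5 members included the medians were -0.91 and 0.90. In the comparisons not used by the choice, 9 of the 10 rose from 2 to 4 dpf (13.8% of all genes) and 7 from 4 to 6 dpf (4.81%). From 6 to 11 dpf 2 rose (4.24%) and 1 fell (5.04%).

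**Figure D3:**
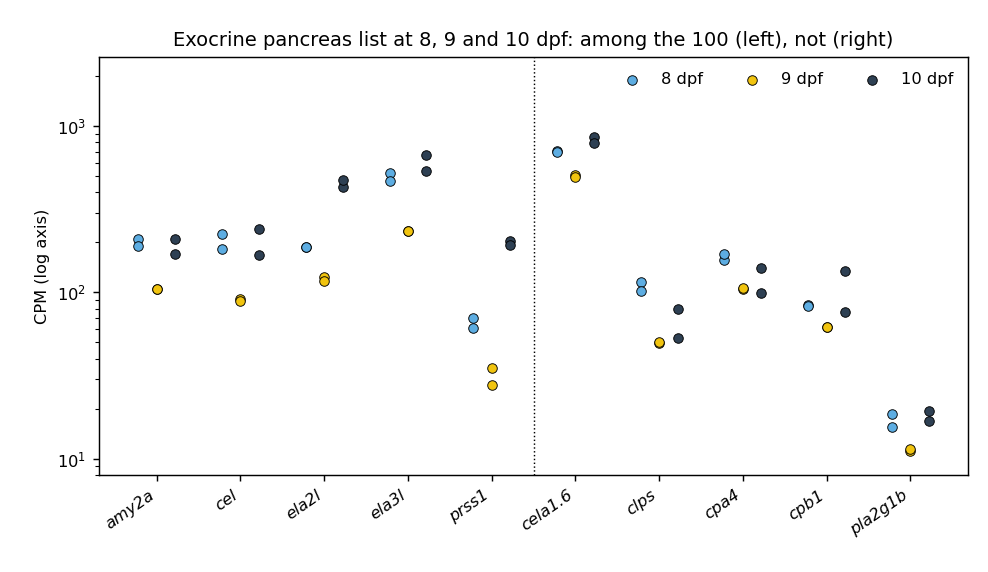
Points are the CPM of the 6 single libraries of 8 (blue), 9 (yellow) and 10 dpf (dark) on a log axis, for the 10 genes of the exocrine pancreas list. The 5 genes left of the dotted line are among the 100, and their libraries of 9 dpf lie below the other 4 because of the choice. Of the 5 on the right, cpa4 overlaps between 9 and 10 dpf and the others do not.

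Few of the 100 genes were found on lists for other cell types and pathways. With 100 of 21656 genes chosen, lists of this length would hold few by share alone. The 42 genes known only by an identifier could match none. Nothing is read from the absences. Of 12 further lists, the heat shock list held 1 of the 100 genes (dnajb9b, of 57) and the liver plasma protein list 1 (hp, of 41). None was found on the lists for enterocytes (34 genes), gastric glands (11), cholesterol synthesis (26), fatty acid synthesis (16), the circadian clock (33), the interferon response (19), immediate-early genes (34), the cell cycle (44), lens crystallins (18) or insulin and fasting (29). Through their symbols, 7 of the 11 genes on the gastric list (pgap and pgam genes) and 2 of the 19 on the interferon list (mxd1 and mxd3) are genes of other function. Without them, a choice made after the values were seen, the 4 gastric genes had medians of -0.31 for 9 against 8 dpf and 1.46 for 10 against 9 dpf, and the interferon genes -0.08 and -0.25. The enterocyte list also caught fabp10a, fabp10b and apobec2b by symbol, and the heat shock list hspg2. These genes of other function stayed in the medians. With every listed gene kept, the median log2 fold changes of 9 against 8 dpf and of 10 against 9 dpf were -0.43 and 0.06 for enterocyte genes, -0.18 and 0.17 for the gastric list, -0.38 and -0.07 for cholesterol synthesis genes, and 0.02 and 0.14 for fatty acid synthesis genes. They were 0.30 and -0.07 for circadian clock genes, -0.12 and -0.09 for interferon response genes, 0.18 and 0.22 for immediate-early genes, and -0.16 and -0.03 for heat shock genes. The last 4 lists gave -0.24 and -0.07 for cell cycle and DNA replication genes, 0.50 and -0.22 for lens crystallins, -0.12 and 0.17 for liver plasma protein genes, and -0.16 and -0.08 for insulin and fasting response genes. Hormone genes of the endocrine pancreas were looked up after the lists, with the results known. The somatostatin gene sst2, the first gene outside the 100, was at 12.6 and 19.5 CPM at 8 dpf, 8.50 and 6.81 CPM at 9 dpf and 14.5 and 12.3 CPM at 10 dpf, so that both libraries of 9 dpf were below the other 4. The insulin gene ins was at 4.18 and 8.70 CPM, 9.66 and 7.92 CPM and 5.002 and 8.92 CPM, and the glucagon gene gcga at 7.67 and 11.8 CPM, 9.53 and 8.48 CPM and 8.23 and 12.7 CPM, and for both the 3 stages overlapped. A further glucagon gene, gcg, reached 0.837 CPM at most in these 6 libraries.

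The 6 genes of the secretory pathway act where such proteins are made. The genes ost4 and tmem258 encode subunits of the oligosaccharyltransferase, spcs3 a subunit of the signal peptidase, dnajb9b a co-chaperone of the endoplasmic reticulum, agr2 a disulfide isomerase of the same compartment and selenom a selenoprotein that resides there. Their summed level was 758 and 690.0 CPM at 2 dpf, 627 and 872 CPM at 4 dpf, 516 and 528 CPM at 6 dpf, 338 and 353 CPM at 8 dpf, 179 and 176 CPM at 9 dpf, 369 and 321 CPM at 10 dpf, and 319.7 and 307 CPM at 11 dpf, highest at 2 and 4 dpf and not at 6 dpf. The subunit gene ost4 was at 89.2 and 111 CPM at 2 dpf, 147.6 and 134 CPM at 4 dpf, 56.8 and 53.4 CPM at 6 dpf, 51.2 and 55.04 CPM at 8 dpf, 19.4 and 14.2 CPM at 9 dpf, 50.7 and 35.7 CPM at 10 dpf, and 19.9 and 18.2 CPM at 11 dpf. It was 3.16-fold higher at 8 than at 9 dpf on stage means, and at 11 dpf 1 of its 2 libraries lay within the range of 9 dpf. The genes agr2 and dnajb9b were higher at 11 dpf than in every library of 8 and 10 dpf. The first was at 73.8 and 74.5 CPM at 8 dpf, 45.2 and 46.4 CPM at 9 dpf, 105 and 103 CPM at 10 dpf and 156 and 149.7 CPM at 11 dpf. The gene dnajb9b, also on the heat shock list, was at 12.97 and 13.3 CPM at 8 dpf, 7.34 and 7.50 CPM at 9 dpf, 13.4 and 11.2 CPM at 10 dpf and 19.5 and 18.9 CPM at 11 dpf.

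From 2 to 4 dpf, where the enzymes rose steeply, none of the 6 was called by edgeR, with or without p adjustment, or by DESeq2. By edgeR with adjustment 19.8% of all genes tested were called, and 6 genes are too few to read a difference from that share. Their median log2 fold change was 0.27. From 4 to 6 dpf only ost4 was called (-1.42 ± 0.18, adjusted p = 2.18e-05, edgeR quasi-likelihood test, Benjamini-Hochberg), against 11.3% of all genes. From 6 to 11 dpf, by the same edgeR test, ost4 (-1.43 ± 0.19, adjusted p = 6.57e-05) and tmem258 (-1.01 ± 0.23, adjusted p = 0.0037) were lower (5.04% of all genes). The latter call sits at the edge of the threshold. It was lost with RLE scaling, DESeq2, a fit of only the 4 libraries compared and summed library pairs, and without the second library of 4, 6 or 11 dpf. Of the 4 lysosomal proteases and inhibitors, the cathepsin genes ctsb and ctss2.1 were at 67.5 and 63.1 CPM and 17.5 and 17.4 CPM at 9 dpf, against 113 and 115 CPM and 27.1 and 25.4 CPM at 8 dpf. From 2 to 4 dpf, 3 of these 4 rose, against 13.8% of all genes tested. Among them was the Kazal-type inhibitor gene spink4 (3.27 ± 0.28, adjusted p = 1.11e-07, edgeR quasi-likelihood test). None of the 4 was called at the later steps by edgeR, with or without adjustment, or by DESeq2. By edgeR with adjustment 11.3% and 9.27% of all genes were called at these steps. With library totals 2 of the 4 were called lower from 6 to 11 dpf.

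Ribosomal proteins entered through a gap in the rule. Symbols starting with rpl and rps were dropped, but 6 such genes, among them rpl22, rplp2l, fau, rpl36a and rps26l, are listed in the table by an identifier or another symbol and stayed in. Of the dropped genes, 17 scored higher than the last of the 100, all of them ribosomal proteins, with rpl38 (1.11) and rpl27a (1.09) in front. All 70 genes that the table lists under rpl or rps took 4.48 and 4.404% of counts at 9 dpf. They took 5.80 and 6.50% on the day before, 6.23 and 5.52% on the day after and 4.78 and 4.70% at 11 dpf. These shares at 11 dpf were above 9 dpf but below every library of 8 and 10 dpf.

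The most abundant of the 100 genes was rpl36a, with 1626 and 2464 CPM at 2 dpf, 4056 and 5025 CPM at 4 dpf, 1654 and 1653 CPM at 6 dpf, 1074 and 1383 CPM at 8 dpf, 645 and 616 CPM at 9 dpf, 1231 and 963 CPM at 10 dpf, and 775 and 836 CPM at 11 dpf. Levels were highest in both libraries of 4 dpf and lowest at 9 dpf, with 11 dpf next. The gene rpl22 was at 781 and 931 CPM at 8 dpf, 395 and 393 CPM at 9 dpf, 904 and 688 CPM at 10 dpf and 435 and 440.3 CPM at 11 dpf. The gene fau, whose product is cut into a ubiquitin-like protein and a ribosomal protein, was at 734 and 861 CPM, 422 and 403 CPM, 848 and 665 CPM and 537 and 508 CPM at the same stages. In 5 of the 6 both libraries of 11 dpf lay above 9 dpf and below every library of 8 and 10 dpf. The exception, rplp2l, had 313 and 326 CPM at 9 dpf and 264 and 292 CPM at 11 dpf, so that it was lowest at 11 dpf. The ratio of 11 over 9 dpf was 0.871 to 1.28 for the ribosomal proteins (median 1.21), beside 1.096 to 13.04 for the digestive enzymes (median 2.42). The difference between the groups was not tested.

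Over the libraries not used by the choice, most ribosomal proteins rose early and then fell. From 2 to 4 dpf 4 of the 6 rose, against 13.8% of all genes tested, and the median log2 fold change of the 6 was 1.22. Among them was rpl36a (1.40 ± 0.24, adjusted p = 2.10e-04, edgeR quasi-likelihood test, Benjamini-Hochberg). With library totals in place of edgeR's TMM scaling 2 were called, and in a fit of only the 4 libraries compared 1. From 4 to 6 dpf 4 of the 6 fell, against 6.48% of all genes, with a median of -1.15. The largest falls by edgeR's quasi-likelihood test were those of rpl22 (-1.54 ± 0.22, adjusted p = 6.00e-05) and rpl36a (-1.53 ± 0.24, adjusted p = 1.87e-04). From 6 to 11 dpf only rplp2l was called (-1.22 ± 0.32, adjusted p = 0.0096), and that call was lost when the library pairs were summed, and without the first library of 6 dpf or either of 11 dpf. All 6 were on the lower side there, with a median of -0.94, while lower calls made up 5.04% of all genes tested. With library totals, which move the median of all genes to -0.13, 5 of the 6 were called lower.

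**Figure D4:**
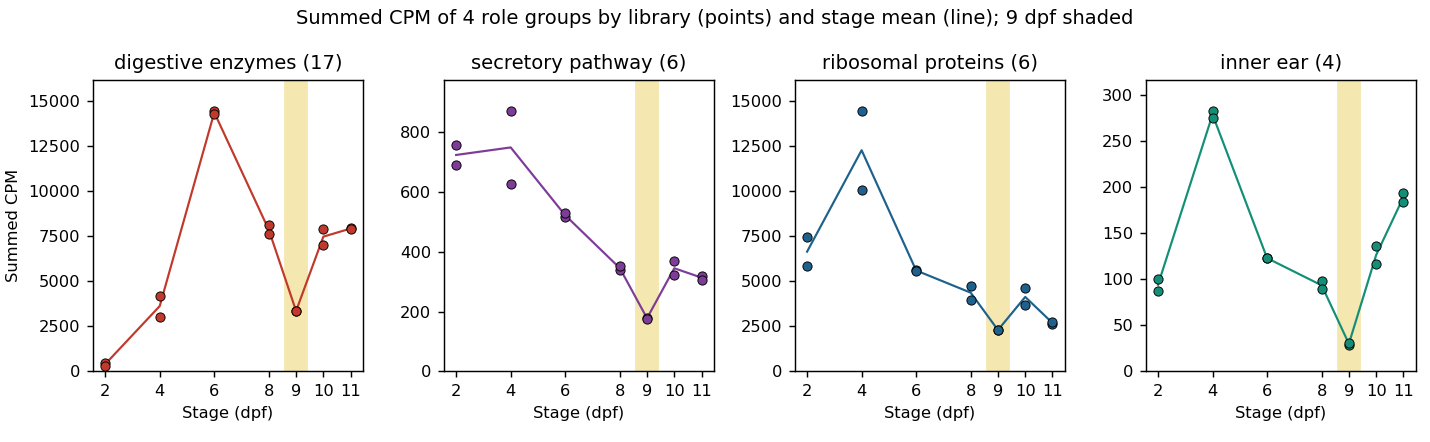
Points are the summed CPM of 4 role groups in single libraries and lines the stage means, by age in days post fertilization, each on its own linear axis from 0; the yellow band marks 9 dpf and gene numbers stand in parentheses. The digestive sum, which includes genes placed by a peptidase activity alone, peaks at 6 dpf, and the ribosomal and inner ear sums peak at 4 dpf. At 11 dpf the ribosomal sum (2639 and 2719 CPM) is near its level at 9 dpf (2315 and 2264 CPM), while the digestive sum (7940.5 and 7924 CPM) is back in the range of 8 and 10 dpf.

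Among the 4 inner ear genes, stm encodes starmaker, known in zebrafish for shaping the otolith crystal. It was at 61.4 and 69.1 CPM at 2 dpf, 247 and 219 CPM at 4 dpf, 85.2 and 77.1 CPM at 6 dpf, 66.5 and 62.3 CPM at 8 dpf, 18.9 and 18.5 CPM at 9 dpf, 58.7 and 39.6 CPM at 10 dpf, and 68.4 and 63.95 CPM at 11 dpf. Both libraries of 9 dpf were below all 12 others. The gene otomp, for an otolith matrix protein, was at 17.5 and 22.5 CPM at 6 dpf, 11.2 and 7.06 CPM at 8 dpf, 2.96 and 3.33 CPM at 9 dpf, 12.1 and 6.05 CPM at 10 dpf, and 6.06 and 5.37 CPM at 11 dpf, and otogl, for an otogelin-like protein, at 13.7 and 17.3 CPM at 6 dpf, 6.70 and 5.77 CPM at 8 dpf, 2.96 and 2.501 CPM at 9 dpf, 6.45 and 4.54 CPM at 10 dpf, and 7.07 and 6.29 CPM at 11 dpf. These 2 genes too were lowest at 9 dpf of all stages, and otogl had from 18 to 23 counts in each library of 9 dpf. The gene coch, for the inner ear matrix protein cochlin, followed another course, with 2.25 and 5.46 CPM at 2 dpf, 4.86 and 1.17 CPM at 4 dpf, 6.68 and 5.96 CPM at 6 dpf, 13.4 and 13.95 CPM at 8 dpf, 4.12 and 6.53 CPM at 9 dpf, 58.7 and 66.5 CPM at 10 dpf, and 113 and 109 CPM at 11 dpf. Its libraries of 9 dpf lay within the range of 2, 4 and 6 dpf, and from 10 dpf on it was higher than ever before.

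From 2 to 4 dpf stm (2.08 ± 0.17, adjusted p = 5.88e-08, edgeR quasi-likelihood test, Benjamini-Hochberg), otomp (1.15 ± 0.31, adjusted p = 0.007) and otogl (1.01 ± 0.22, adjusted p = 0.0016) rose. Over all genes tested, 13.8% were called higher at this step. Without the second library of 4 dpf or with library totals only stm was called. From 4 to 6 dpf coch was called (1.197 ± 0.43, adjusted p = 0.046), but held in only 4 of 14 fits that left out 1 library, and stm fell (-1.59 ± 0.16, adjusted p = 3.08e-06). From 6 to 11 dpf coch rose (4.22 ± 0.27, adjusted p = 1.86e-08), while otomp (-1.70 ± 0.33, adjusted p = 0.0014) and otogl (-1.11 ± 0.24, adjusted p = 0.0031) fell, and the last 2 calls were lost when the library pairs were summed. Next to stm in the gene order lies si:ch211-80h18.1, also among the 20 highest scores, with 45.6 and 43.8 CPM at 8 dpf, 7.99 and 8.61 CPM at 9 dpf and 43.1 and 19.7 CPM at 10 dpf.

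The 33 other named genes are known from unlike tissues. The gene sftpba encodes surfactant protein B, a part of lung surfactant in mammals. It was at 0.518 and 1.06 CPM at 2 dpf, 7.05 and 0.147 CPM at 4 dpf, 2.23 and 2.03 CPM at 6 dpf, 30.8 and 30.7 CPM at 8 dpf, 21.3 and 18.8 CPM at 9 dpf, 123.6 and 158 CPM at 10 dpf, and 121 and 122.5 CPM at 11 dpf. Levels were higher at 8 than at 6 dpf, and at 9 dpf stood below 8 dpf but far above 6 dpf. From 6 to 11 dpf its log2 fold change was 5.92 ± 0.44 (SE, adjusted p = 6.95e-08, edgeR quasi-likelihood test, Benjamini-Hochberg), the largest of any of the 99 genes tested at this step. The score of sftpba was 0.51, and it left the list with a pseudocount of 0.1 CPM. It also left without either library of 8 dpf, or without the second of 9 or 10 dpf. A related gene by symbol, sftpbb, is not among the 100. It was at 7.85 and 8.40 CPM at 6 dpf and 9.82 and 9.97 CPM at 11 dpf. By the same test it was not called (0.38 ± 0.21, adjusted p = 0.19).

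The gene bglapl, for an osteocalcin-like protein of bone, was at 17.995 and 11.6 CPM at 4 dpf, 28.7 and 29.4 CPM at 6 dpf, 84.3 and 83.5 CPM at 8 dpf, 46.1 and 45.9 CPM at 9 dpf, 134 and 137 CPM at 10 dpf, and 256 and 239 CPM at 11 dpf. It rose from 2 to 4 dpf (3.90 ± 0.31, adjusted p = 4.77e-08, edgeR quasi-likelihood test, Benjamini-Hochberg) and from 6 to 11 dpf (3.19 ± 0.17, adjusted p = 3.15e-09), and 9 dpf lay between 6 and 8 dpf in level. The gene olfm4.1, for an olfactomedin, was at 338 and 525 CPM at 4 dpf, 301 and 311 CPM at 6 dpf, 35.2 and 39.02 CPM at 8 dpf, 9.27 and 8.48 CPM at 9 dpf, 38.7 and 17.998 CPM at 10 dpf, and 12.6 and 12.1 CPM at 11 dpf, and fell from 6 to 11 dpf by 4.53 ± 0.29 on the log2 scale (adjusted p = 1.86e-08). Both libraries of 11 dpf were below both of 8 dpf. The haptoglobin gene hp, whose product binds free haemoglobin, was at 18.5 and 54.9 CPM at 4 dpf, 10.6 and 11.5 CPM at 6 dpf, 5.02 and 2.498 CPM at 8 dpf, 1.29 and 1.11 CPM at 9 dpf, 41.9 and 17.7 CPM at 10 dpf, and 2.89 and 3.37 CPM at 11 dpf. Its libraries of 10 dpf stood above all those of 6 to 9 dpf and of 11 dpf, and its level was at least 70.7-fold higher at 4 than at 2 dpf, where neither library held more than 3 counts.

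Some members rested on very few counts. The claudin gene cldn26, for a tight junction protein, had 0 counts in both libraries of 9 dpf, but its highest level at 8 and 10 dpf was 0.976 CPM. It was at least 1.69-fold higher at 8 dpf and at least 1.49-fold higher at 10 dpf than the floor at 9 dpf allows, and at 11 dpf it had 0.144 and 0 CPM. From 6 to 11 dpf it was lower (adjusted p = 0.0012, edgeR quasi-likelihood test, Benjamini-Hochberg), at no more than 0.239 of its level at 6 dpf by the floor. The scleraxis gene scxb, a transcription factor gene of tendons, was at 1.39 and 1.21 CPM at 8 dpf, 0.129 and 0.278 CPM at 9 dpf and 2.42 and 1.97 CPM at 10 dpf. LOC113523668 was the only one of the 100 that failed the filter on low counts, with 0.697 and 0.603 CPM, 0.129 and 0.139 CPM and 1.13 and 1.06 CPM at these stages, and it entered no test. Among the remaining high scores were LOC113526094, the second by score, with 10.9 and 10.2 CPM at 8 dpf, 3.09 and 3.20 CPM at 9 dpf and 11.1 and 10.1 CPM at 10 dpf, and the endoribonuclease gene endou, with 67.2 and 74.9 CPM, 30.8 and 28.2 CPM and 89.2 and 63.1 CPM.

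LOC113536891, which the study lists as a subunit of cytochrome c oxidase, the last enzyme of the respiratory chain, was at 250.1 and 367 CPM at 2 dpf, 493 and 564 CPM at 4 dpf, 235 and 238 CPM at 6 dpf, 182 and 222 CPM at 8 dpf, 102 and 96.7 CPM at 9 dpf, 202 and 166 CPM at 10 dpf, and 105 and 106 CPM at 11 dpf. Its libraries of 11 dpf lay just above those of 9 dpf and below all of 8 and 10 dpf. It rose from 2 to 4 dpf (1.02 ± 0.20, adjusted p = 4.82e-04, edgeR quasi-likelihood test, Benjamini-Hochberg) and fell from 4 to 6 dpf (-1.23 ± 0.20, adjusted p = 1.84e-04) and from 6 to 11 dpf (-1.07 ± 0.20, adjusted p = 8.84e-04). The first call was lost with library totals, in a fit of only the 4 libraries compared, and without the first library of 2 dpf or the second of 4 dpf, and the last with summed library pairs.

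Genes without a name included some of the most abundant ones. LOC113540780 was at 713 and 1377 CPM at 4 dpf, 3467 and 3358 CPM at 6 dpf, 1469.8 and 1401 CPM at 8 dpf, 688 and 662 CPM at 9 dpf, 1158 and 1056 CPM at 10 dpf, and 928 and 858 CPM at 11 dpf, and LOC113526964 at 568 and 1140.2 CPM at 4 dpf, 1129 and 1132 CPM at 6 dpf, 487 and 458 CPM at 8 dpf, 180.2 and 178 CPM at 9 dpf, 533 and 325 CPM at 10 dpf, and 399 and 398 CPM at 11 dpf. Both were lower at 11 than at 6 dpf. They decreased by 1.84 ± 0.32 and 1.41 ± 0.27 on the log2 scale (adjusted p = 4.82e-04 and 0.0011, edgeR quasi-likelihood test, Benjamini-Hochberg), calls that were lost when the library pairs were summed. LOC113545096 changed most from 2 to 4 dpf, with 0 and 0.303 CPM at 2 dpf against 71.5 and 174 CPM at 4 dpf, at least 237-fold higher over the floor. It then fell to 6.68 and 5.83 CPM at 6 dpf and stood at 1.55 and 2.64 CPM at 9 dpf and 45.8 and 50.3 CPM at 11 dpf. LOC113531235, annotated for defence against bacteria, was at 53.01 and 36.2 CPM at 8 dpf, 18.2 and 19.6 CPM at 9 dpf, 69.1 and 83.2 CPM at 10 dpf and 24.7 and 21.3 CPM at 11 dpf. Its libraries of 10 dpf lay above those of both 9 and 11 dpf.

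LOC113532347 lies next to the protease gene LOC113532348 and rose at every tested step, by 1.01 ± 0.37 from 2 to 4 dpf (adjusted p = 0.037, edgeR quasi-likelihood test, Benjamini-Hochberg), 3.17 ± 0.28 from 4 to 6 dpf (adjusted p = 6.43e-07) and 3.34 ± 0.22 from 6 to 11 dpf (adjusted p = 2.54e-08). The first of these calls was lost in 5 of 9 other settings. The gene was at 46.4 and 62.96 CPM at 8 dpf, 31.6 and 32.8 CPM at 9 dpf and 471 and 487 CPM at 11 dpf. LOC113533366 and LOC113547740 were among the steepest risers from 2 to 4 dpf, by 5.78 ± 0.24 and 5.29 ± 0.23 (adjusted p = 4.15e-11 for both). LOC113542379 was among those from 4 to 6 dpf, by 3.98 ± 0.40 (adjusted p = 2.71e-06). The remaining high scores were LOC113544185, with 34.2 and 35.6 CPM, 12.9 and 14.7 CPM and 55.99 and 41.4 CPM at 8, 9 and 10 dpf, and LOC113546714, with 69.6 and 78.2 CPM, 38.3 and 35.6 CPM and 98.3 and 77.9 CPM.

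Over all 99 genes that passed the filter, 62 were called from 2 to 4 dpf, 59 of them higher and 3 lower (against 19.8% of the 19310 genes tested in either direction). The higher calls compare with a background of 13.8% and the lower ones with 5.99%. The median log2 fold change was 1.37, against 0.00 over all genes. From 4 to 6 dpf 49 were called, 27 higher (background 4.81%) and 22 lower (6.48%), against 11.3% of all genes. The median was -0.14 against -0.02, and changed sign to 0.29 without the second library of 4 dpf. From 6 to 11 dpf 42 were called, 13 higher (background 4.24%) and 29 lower (5.04%), against 9.27% of all genes, with a median of -0.43 against -0.03. Fewer were called at this last step when the library pairs of 6, 9 and 11 dpf were each summed, among the 99 and over all genes. That fit leaves 1 library at each of these stages, and its median was -0.42 against -0.03 over all genes. A call required both an adjusted p below 0.05 and a change of more than 1 on the log2 scale.

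**Figure D5:**
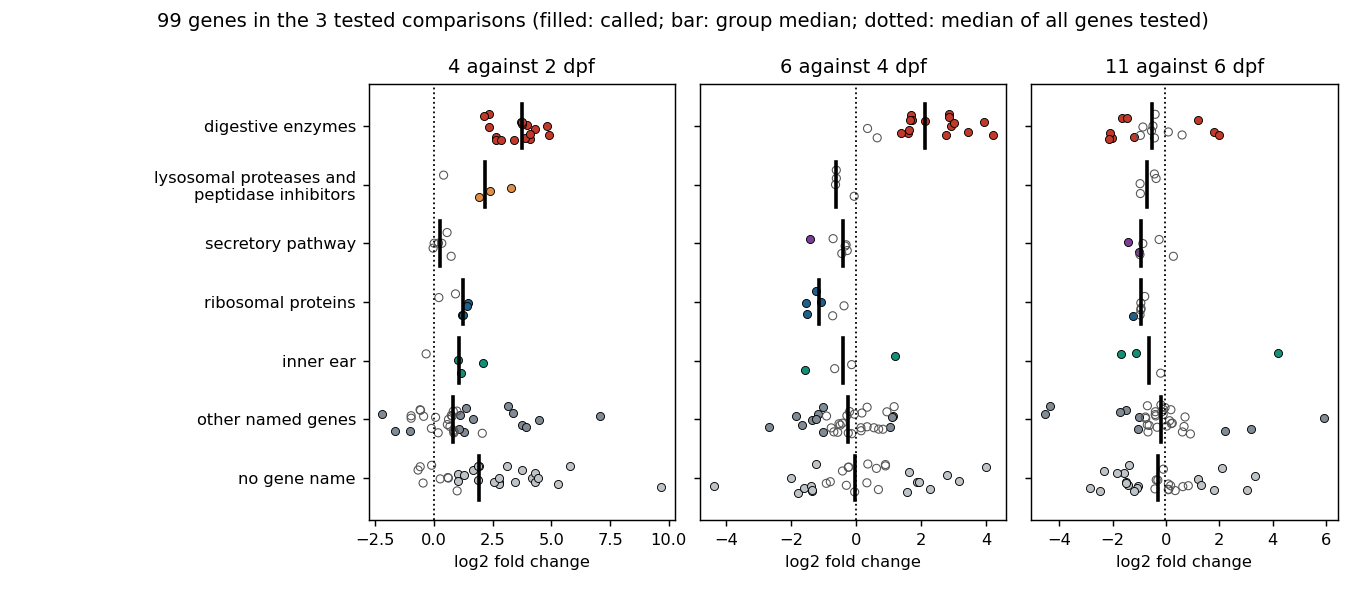
Points are log2 fold changes of the 99 tested genes by role group in the 3 comparisons that the choice of the genes did not use. Filled points were called by edgeR's quasi-likelihood test, black bars are group medians, and the dotted line is the median of all 19310 genes. All 17 digestive enzymes lie to the right at 4 against 2 dpf (median 3.74), while ribosomal proteins change sides between the first comparison (median 1.22) and the second (median -1.15).

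For the steps that the choice did use, the counts below apply the same call threshold, but only as a description. The rule required low levels at 9 dpf, which set the direction at 9 against 8 and 10 against 9 dpf in advance. These counts are therefore no evidence of a dip. At 9 against 8 dpf 63 of the 99 met the call threshold as lower (background 0.818%) and none as higher (0.461%). At 10 against 9 dpf 57 met it as higher (0.792%) and none as lower (0.218%). At 10 against 8 dpf 7 were higher (0.280%) and none was lower (0.135%). At 11 against 9 dpf 47 were higher (2.25%) and none lower (0.715%). At 8 against 6 dpf 5 were higher (3.02%) and 16 lower (2.72%), and at 9 against 6 dpf 2 were higher (4.85%) and 77 lower (6.18%). At 11 against 10 dpf 3 were higher (0.699%) and 10 lower (0.445%). In either direction the background was 1.28% at 9 against 8 dpf, 1.01% at 10 against 9 dpf, 0.414% at 10 against 8 dpf, 2.97% at 11 against 9 dpf, 5.74% at 8 against 6 dpf, 11.0% at 9 against 6 dpf and 1.14% at 11 against 10 dpf.

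How far 9 dpf was the low point of the whole series differed by role. Both libraries of 9 dpf were below all 12 others in 41 of the 100 genes, against 3.87% of all genes tested. This held for 5 of the 6 ribosomal proteins, 4 of the 6 secretory pathway genes, 3 of the 4 inner ear genes and none of the 17 digestive enzymes, all of which were lowest at 2 dpf. From 4 dpf on, 9 dpf was below every other library in 66 genes (4.88% of all genes), including 7 of the enzymes. Both libraries of 9 dpf were below both of 6 dpf in 95 genes (47.4%) and below both of 11 dpf in 92 (31.6%). They were below both libraries of 2 dpf in 52 (52.5%) and below both of 4 dpf in 73 (37.0%). In 31 genes both libraries of 11 dpf were at or above the highest of 8 and 10 dpf (25.5%), among them 8 digestive enzymes and no ribosomal protein. In 53 genes both were at or above the lowest library of 8 and 10 dpf (72.0%). In 25 genes they were above 9 dpf but below every library of 8 and 10 dpf (0.663%), and in 8 they were not both above 9 dpf (68.4%). The highest stage mean fell on 4 dpf in 36 genes, 6 dpf in 27, 2 dpf in 16 and 11 dpf in 14. The rule required 9 dpf to be below 8 and 10 dpf, so the backgrounds are given for scale and nothing was read from them.

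Outside the stages of the choice, the roles differed in how alike their genes were. Over the 8 libraries of 2, 4, 6 and 11 dpf, the median Pearson correlation of log2 levels was 0.93 among the 136 pairs of digestive enzymes (lowest 0.58), 0.90 among the 15 pairs of ribosomal proteins and 0.69 among the 15 pairs of secretory pathway genes. It was 0.67 among the 6 pairs of lysosomal proteases and inhibitors and 0.47 among genes without a name, but 0.098 among the 6 pairs of inner ear genes (-0.81 to 0.91) and 0.097 among the other named genes. Between ribosomal and secretory pathway genes it was 0.76, between digestive enzymes and ribosomal proteins -0.17, and between digestive enzymes and secretory pathway genes -0.27. Over all pairs of the 99 genes it was 0.32. These points share libraries and stage differences, and only 4 stages stand behind them.

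By the order of protein-coding genes in a RefSeq annotation of another assembly, 91 of the 100 could be placed. Of these, 19 fell into 9 clusters in which neighbours were no more than 5 places apart in that order. Of these clusters, 4 held only genes placed under digestive enzymes, among which prss1 alone carries the name of a digestive protein. They were prss1 with LOC113526417, LOC113533918 with LOC113533920, LOC113534544 with LOC113534536 and LOC113534302, and LOC113546609 with LOC113546600. Where such copies are near-identical, the counting could have split reads between them, and the values of single copies are uncertain to that extent. Over the genes that are not among the 100, the root mean square log2 distance was 0.39 from 9 dpf to 8 dpf, 0.39 to 10 dpf and 0.38 between 8 and 10 dpf, and it was 0.64 from 6 to 9 dpf, against 0.53 from 6 to 8 dpf and 0.68 from 6 to 10 dpf.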

How the data were processed

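RNA of whole larvae was depleted of ribosomal RNA and sequenced at 7 stages with 2 libraries each. Per the labels and the study's methods, the authors used Trimmomatic 0.36 for trimming, STAR 2.7.0 for alignment and HTSeq for counting by gene; the counting mode and strand are not given in the sources used here. The deposited table holds these raw counts for 21656 genes and 14 libraries, with 0 columns left unused. CPM, the score and the member list were computed from it in Python 3.11.15. Tests used edgeR 4.0.16 in R 4.3.3 (filterByExpr, 19310 genes kept; TMM factors 0.895 to 1.23; 1 quasi-likelihood fit of all 14 libraries; common dispersion 0.0141; Benjamini-Hochberg adjustment over all genes tested). SEs were taken as the absolute log2 change over the root of the F statistic. The method was tested on simulated data. These had the same dispersion for all genes and stages, unlike the library pairs here, so the unequal spread between stages was not covered. Only 4 against 2, 6 against 4 and 11 against 6 dpf were taken as tests, since the other comparisons share libraries with the rule. Alternatives were DESeq2 1.42.0, other scalings and filters, and leaving out each library.

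The members, the 13 gene lists and the tests were chosen with earlier results of these data known. Named are the 20 highest scores, members on a list, the 5 largest called changes in each tested comparison, the 10 most abundant members and those at the threshold; other members were named by role after their values were seen. Of the 100 genes, 78 are listed by an identifier, and 36 of these took a symbol from RefSeq annotation, used for names and gene order only. The lists were matched by symbol, so that genes known only by an identifier could not enter them. Floors cover counting error only. No sequences were used here, and 1 gene is not reported here by name.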

Additional observations from a re-analysis of the deposited data

How the results depend on the processing

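The counts of called members kept their direction and stayed within 1.5 times under the planned settings. Leaving out each library in turn gave 58 to 68 calls for 4 against 2 dpf, 44 to 56 for 6 against 4 dpf and 35 to 42 for 11 against 6 dpf. Other scalings, filters, DESeq2, unadjusted p and a fit of only the 4 libraries compared gave 51 to 63, 40 to 50 and 32 to 49. Over all genes these settings called 2626 to 4298, 1471 to 2360 and 1218 to 1979, with 15835 to 21625 genes tested. Summing the near-identical pairs (6, 9 and 11 dpf) was a setting chosen after seeing the data. It called fewer members at 11 against 6 dpf, and fewer of all genes, where fewer samples stand behind the test. Of single calls, 48 of 62, 37 of 49 and 23 of 42 held in every setting in which the gene was tested, and none changed its direction. No pairing by replicate number was seen: over 21 pairs of stages the correlation of replicate differences was -0.16 to 0.06. At 6, 9 and 11 dpf these differences were close to counting noise, so stage pairs that include them could hardly have shown a pairing. With the replicate number as a block, 61, 48 and 41 members were called, and 3782, 2125 and 1761 of the 19310 genes tested.

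The list of 100 depends on its rule. With means in place of lowest and highest libraries 53 stayed in it. Leaving out 1 of the 6 libraries used kept 67 to 86, TMM scaling 95, a pseudocount of 0.1 CPM 68 and one of 10 CPM 75. Genes under about 1 CPM at 9 dpf are limited by depth.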
